A study of Canis lupus familiaris with 30 samples.

Results

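Normal stroma of neutered bitches was compared with normal stroma of intact bitches in 13 of the 30 RNA sequencing libraries of the series. The members were all libraries of normal stroma with a total of at least 100000 estimated counts, 5 from neutered dogs (109, 130, 131, 132 and 137) and 8 from intact dogs (121, 123, 126, 127, 134, 135, 138 and 139). The remaining 2 normal stroma libraries, of intact dog 128 and neutered dog 136, held 29284 and 32528 counts. They were left out of the main tests. The study itself set cancer-associated stroma (CAS) of simple mammary carcinoma against normal stroma of the same animal, both cut by laser-capture microdissection (LCM) from formalin-fixed, paraffin-embedded (FFPE) tissue. Normal stroma here means the connective tissue beside unaltered mammary glands of a tumour-bearing dog.

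All 13 dogs were female patients of several breeds whose tumours arose spontaneously and were removed at surgery. Whether they had been treated before surgery was not analysed here. Each dog gave 1 normal stroma library, so the replicates are animals. The sample labels mark only the neutered dogs, and the others are called intact because the case overview of the study lists them as female without that mark. When a dog was neutered, and where an intact dog stood in her cycle, was not analysed here. The neutered dogs were 10 ± 2.74 years old (SD, n = 5) and the intact dogs 9.88 ± 3.68 years (SD, n = 8), a difference within the spread (two-sided exact permutation test, p = 1). The stored tissue was 13 ± 3.94 and 11 ± 7.19 months old, respectively (two-sided exact permutation test, p = 0.587). A tubular carcinoma was present in 3 of 5 neutered and in 4 of 8 intact dogs (Fisher's exact test, p = 1). The other subtypes were not shared between the groups, which that test does not cover. They were tubular-solid (dog 109) and cribriform (131) in neutered dogs. In intact dogs they were tubulo-papillary (121 and 138) and cystic-papillary (134 and 139).

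Mammary stroma is made of fibroblasts and their collagen-rich matrix together with adipocytes, vessels, nerves and immune cells, and it exchanges signals with the glandular epithelium. The ovaries are the main source of oestrogen and progesterone, which drive cyclic growth and regression of the gland, and neutering a bitch removes that source. Early neutering has been associated with a lower risk of mammary tumours in dogs. The genes were listed by Ensembl ID without names, so hormone-responsive genes and the marker genes of fibroblasts, epithelium or fat could not be looked up, and the labelled tissue was not checked against its markers. In bulk tissue, fewer cells of a type and less RNA per cell cannot be told apart.

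The libraries of the groups differed in depth before any gene was compared. The neutered totals were 617177 counts in dog 131, 769370 in dog 132, 1141471 in dog 130, 1302456 in dog 109 and 1365123 in dog 137. The intact totals ran from 2503672 to 3932370 counts with a median of 3066759. Every intact library was thus deeper than every neutered one, by 3.09-fold between the geometric means (log2 difference -1.63, p = 0.000777 by a two-sided exact permutation test, the lowest value that 5 against 8 libraries allow, adjusted p = 0.00194 over 5 values). Neuter status accounted for 85.8% of the variance of the log2 total, and depth and neuter status cannot be told apart in these libraries. In CAS of the same dogs the totals overlapped, with 1361951 to 3954464 counts in the neutered and 2502611 to 5572761 in the intact dogs.

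**Figure D1:**
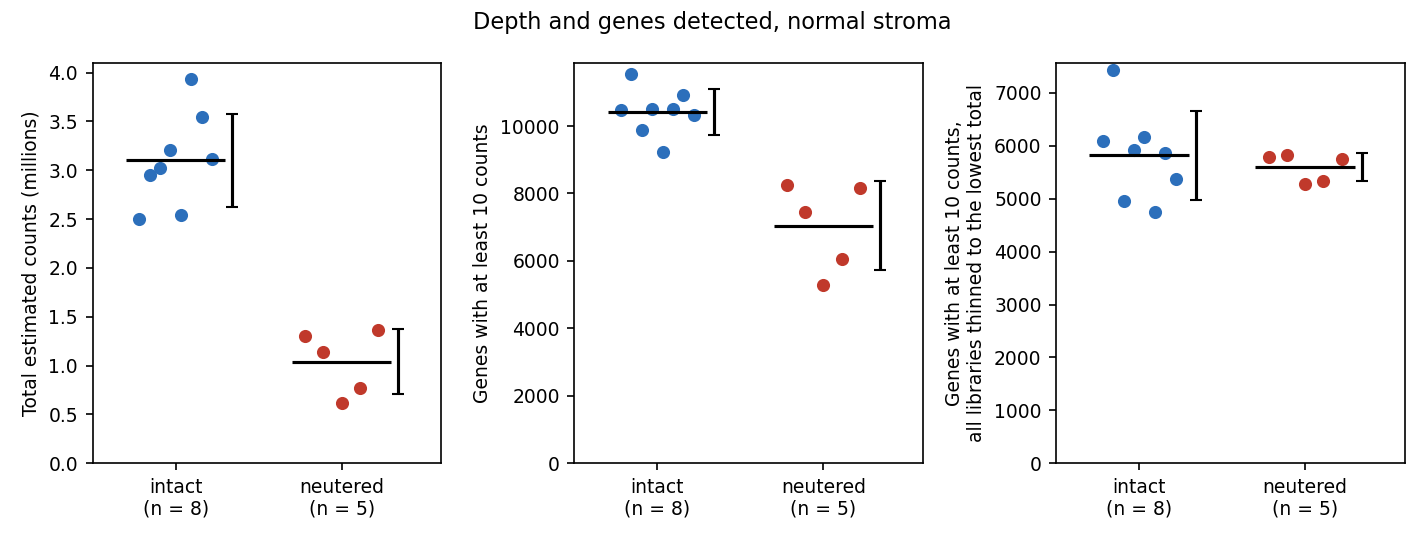
Total estimated counts (left), genes with at least 10 counts (middle) and the same after all libraries were thinned at random to 617177 counts (right), with 1 point per normal stroma library, a line at the group mean and a bar of 1 SD. The 5 neutered libraries lie below all 8 intact ones in the left and middle panels and overlap with them in the right panel.

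Fewer genes were seen in the neutered libraries. At least 10 counts were reached by 7040 ± 1324 genes (SD, n = 5) in neutered and by 10429 ± 681 genes (SD, n = 8) in intact dogs (two-sided exact permutation test, p = 0.000777). After every library was thinned to the lowest total, the numbers were 5595 ± 268 and 5820 ± 836 genes and overlapped (two-sided exact permutation test, p = 0.608). The most abundant gene, ENSCAFG00000007590, was the same in 13 of 13 libraries. It took 23.5% ± 7.34 of the counts in neutered (SD, n = 5) and 24.2% ± 4.12 in intact dogs (SD, n = 8), and its difference did not pass the test (log2 fold change -0.09, SE 0.44, edgeR adjusted p = 0.977). The top 10 genes of each library held 52.2% and 51.4% of its counts, respectively (two-sided exact permutation test, p = 0.877).

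The neutered libraries were also less alike among themselves. Across genes, the log2 CPM values (CPM is a count relative to the total of its library) of a neutered library correlated with the other 4 neutered libraries with a mean r of 0.634 to 0.707, whereas an intact library correlated with the other 7 intact ones with a mean r of 0.740 to 0.843. After thinning to equal depth the ranges were 0.634 to 0.708 and 0.720 to 0.802 and still did not overlap. These are correlations over genes that are not independent, given as a description. In principal component analysis (PCA), PC1 held 26.9% of the variance and was carried by dog 131, whose score was 172. The other neutered dogs scored 35.2 (130), 3.26 (132), -15.7 (137) and -22.0 (109), and the intact dogs -34.4 to 3.97. The group means of PC1 differed by 56.2 (two-sided exact permutation test, p = 0.0171, adjusted p = 0.0684 over 4 components). A PCA computed anew without dog 131, with another PC1 than the one scored above, gave a difference of 48.1 (two-sided exact permutation test, p = 0.0586). In the PCA of all 13 libraries, dogs 109, 132 and 137 lay within the intact range of PC1. None of its first 4 components separated all neutered from all intact dogs. Of 2538 genes with at least 20 CPM in every CAS library, a group picked after the data were seen, 39 were at 0 counts in dog 131 and 0 to 4 in each of the other 12 libraries.

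Of 10421 genes tested, 51 (0.489%) were called at a false discovery rate (FDR) below 0.05 by edgeR's quasi-likelihood test. Of these, 47 (0.451%) were higher and 4 (0.0384%) were lower in neutered dogs. At an unadjusted p below 0.05 the split was 382 higher and 468 lower. Among all genes tested, 52 (0.499%) had all 5 neutered libraries above all 8 intact ones and 37 (0.355%) had them all below. Of the 47 genes called higher, 35 separated the groups in this way and 12 had overlapping libraries, and all 4 genes called lower separated them. The smallest adjusted p was 0.00133 (edgeR).

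**Figure D2:**
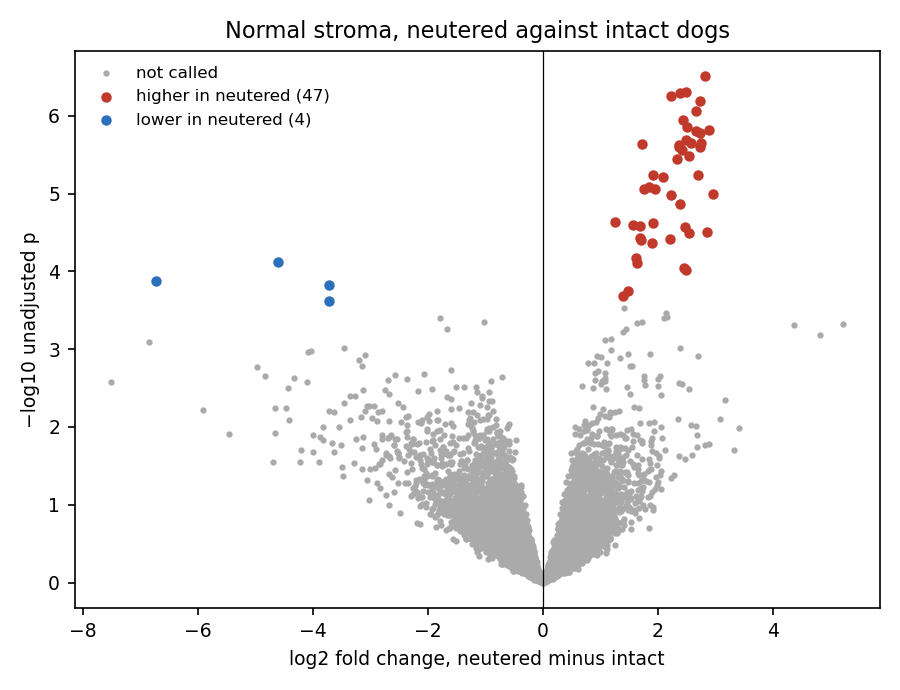
Log2 fold change (neutered minus intact, horizontal axis) against -log10 of the unadjusted edgeR p (vertical axis) for 10421 genes in normal stroma. The 47 genes called higher in neutered dogs sit between 1.26 and 2.95 on the horizontal axis, and the 4 called lower lie far to the left among genes of low counts.

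The 47 higher genes had log2 fold changes of 1.26 to 2.95 with a median of 2.38 (middle 50% of the genes, 1.87 to 2.56), beside a median of -0.06 over all genes tested. They were spread over the range of expression. Their mean level in intact dogs ran from 4.08 to 1747 CPM with a median of 28.8 CPM, and in neutered dogs from 25.7 to 5009 CPM with a median of 127 CPM. Of the 47 genes, 31 were above the median level of all tested genes in intact dogs, which was 19.7 CPM. Few of them rested on low counts, since 43 of the 47 had at least 10 counts in every one of the 13 libraries and the lowest single value was 3 counts. The quantification splits reads among near-identical gene copies, and values of genes with such copies are uncertain.

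The 47 genes rose to a different extent in each neutered dog, and they did so together. Relative to the mean of the 8 intact dogs, the median ratio over the 47 genes was 7.47 in dog 131, 6.71 in dog 137, 4.75 in dog 132, 3.13 in dog 130 and 1.68 in dog 109. The intact dogs ranged from 0.789 to 1.18. Dog 109 had the lowest neutered value for 46 of the 47 genes. The highest neutered value was in dog 131 for 26 genes, in dog 137 for 19 and in dog 132 for 2. In dogs 130, 131, 132 and 137 all 47 genes lay above the intact mean, and in dog 109 46 did. The choice of the genes by the same contrast largely fixed this in advance. Within the 8 intact dogs, which share no neuter difference, pairs of these genes correlated with a median r of 0.488, against 0.00268 for pairs of the other tested genes. The other genes were not matched to the 47 for level. These values are a description over gene pairs that share libraries and depth.

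**Figure D3:**
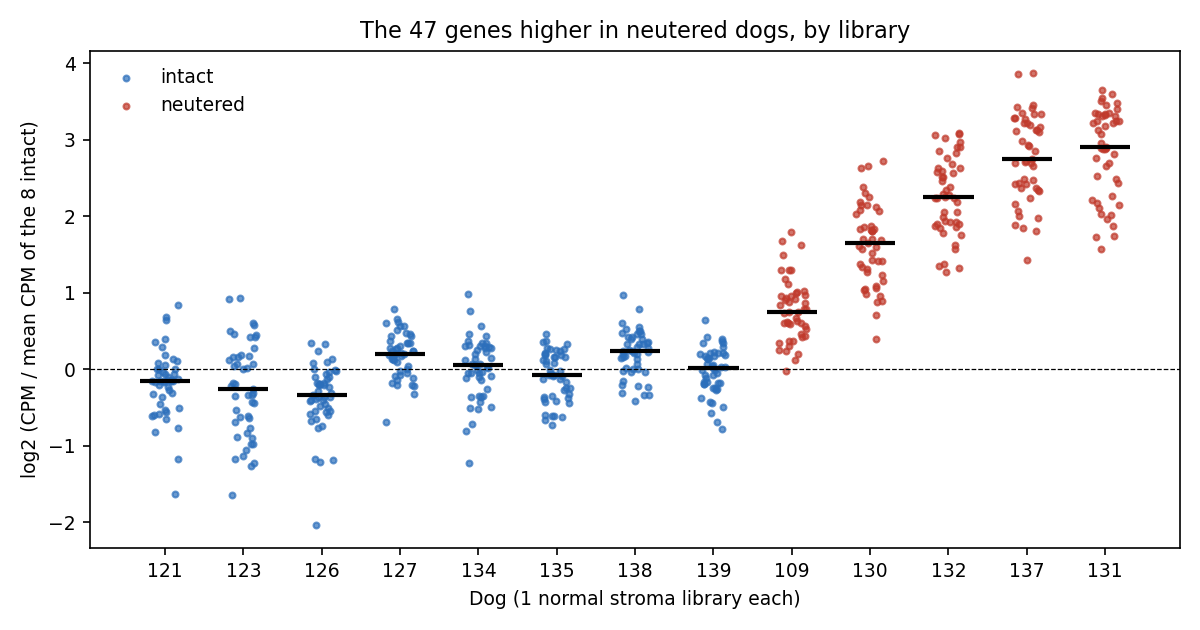
Each point is 1 of the 47 genes called higher, as log2 of its CPM over the mean CPM of the 8 intact dogs (vertical axis), in each of the 13 normal stroma libraries (horizontal axis, by dog), and the black line is the median. The intact medians lie near 0, and the neutered ones step up from dog 109, with a ratio of 1.68, to dog 131, with a ratio of 7.47.

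Summed over the 47 genes, the share of a library's counts was 0.817% in dog 109, 1.38% in dog 130, 2.27% in dog 132, 3.21% in dog 137 and 3.27% in dog 131. In the intact dogs it was 0.353% to 0.581%, with no overlap, which the choice of the genes by the same contrast fixed in advance. The 3 most abundant of the genes gave 48.2% of these counts in neutered dogs. In neutered dogs 131, 132, 130 and 109 the share fell as the total rose, from 3.27% at 617177 counts to 0.817% at 1302456 counts. Dog 137 departed from that order, with the deepest neutered library (1365123 counts) and the second highest share.

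The 2 libraries left out for low depth did not choose these genes. In neutered dog 136 the summed share was 3.76% (95% Clopper-Pearson interval 3.56% to 3.98%), above all 5 neutered dogs of the comparison. In intact dog 128 it was 0.939% (0.832% to 1.06%), above the 8 intact dogs and above neutered dog 109. These intervals cover counting error only. The median ratios to the intact mean were 6.96 and 1.33, respectively.

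ENSCAFG00000028628 had the highest log2 fold change among the called genes whose libraries did not overlap. It stood at 29.9 CPM in dog 109, 66.6 in dog 130, 133 in dog 131, 85.8 in dog 132 and 103 in dog 137. In the intact dogs its lowest, median and highest levels were 3.39, 11.9 and 13.7 CPM. The lowest neutered dog was thus above the highest intact one (log2 fold change 2.89, SE 0.41, edgeR adjusted p = 0.00146). ENSCAFG00000032373, the next by the same rule, stood at 13.1, 16.6, 40.5, 23.4 and 59.3 CPM in dogs 109, 130, 131, 132 and 137. The intact dogs had 0.994, 4.28 and 6.23 CPM as lowest, median and highest levels, again without overlap (log2 fold change 2.85, SE 0.51, edgeR adjusted p = 0.00898). The latter rested on 17 to 81 counts per neutered and 3 to 22 counts per intact library, and its call was lost without dog 137, with 4 surrogate variables and with the log2 total as covariate.

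**Figure D4:**
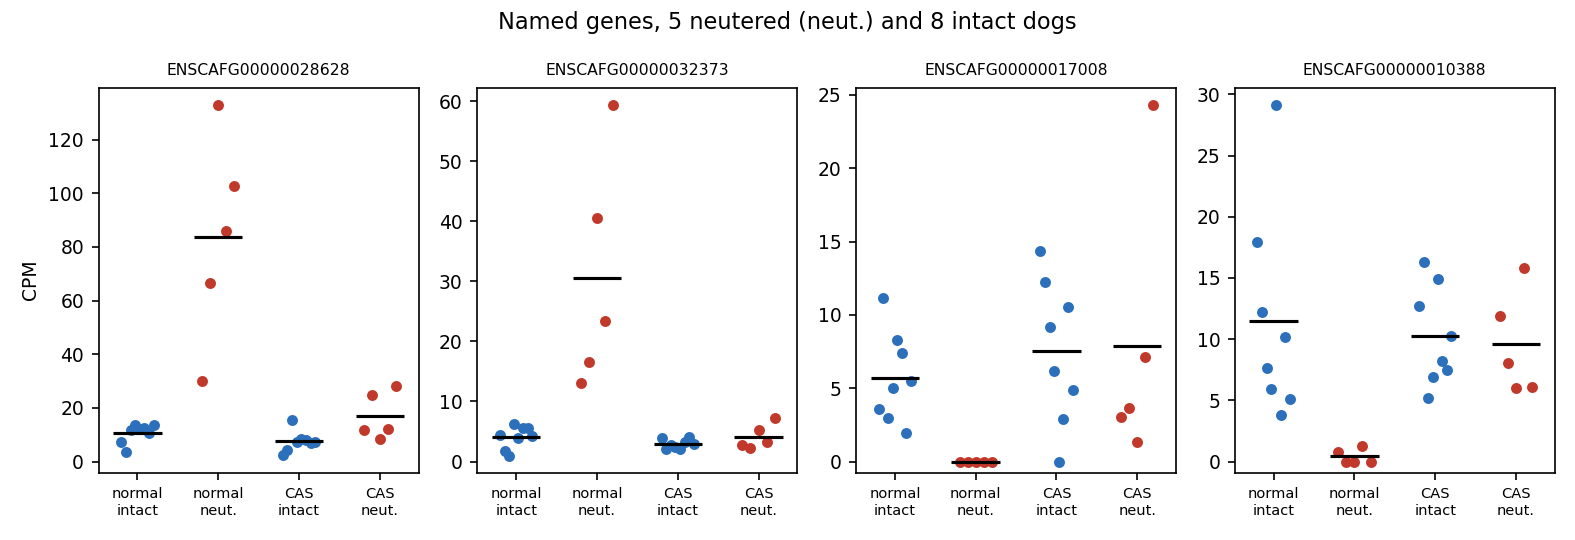
CPM (vertical axis, a separate scale for each gene) of the 2 named higher and 2 named lower genes in normal stroma and CAS of the 8 intact and 5 neutered dogs, with 1 point per library and a line at the mean. The neutered normal stroma stands apart for each gene, which the choice of the genes fixed in advance. It averages 83.5 CPM for ENSCAFG00000028628 and 0 for ENSCAFG00000017008. The CAS libraries, which were not used in that choice, overlap between the groups.

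The 4 genes called lower were rare transcripts at the edge of what the neutered libraries could show. ENSCAFG00000017008 had 0 counts in all 5 neutered libraries and 7 to 33 counts in the intact ones, with 1.97, 5.22 and 11.2 CPM as lowest, median and highest intact levels (log2 fold change -6.72, SE 1.28, edgeR adjusted p = 0.0298). Set against a floor of 3 counts over the neutered group, it was at least 9.84-fold lower. At the mean intact level of 5.73 CPM, 3.53 to 7.82 counts would have been held by a neutered library. ENSCAFG00000010388 had 2 counts in the 5 neutered libraries together and 15 to 74 in each intact one, and the intact level would have given 7.09 to 15.7 counts per neutered library (log2 fold change -4.60, SE 0.90, edgeR adjusted p = 0.0184). No neutered library held more than 3 counts of any of the 4 genes. The call of ENSCAFG00000017008 was lost in 15 of the 21 alternative fits that tested it, among them those without neutered dog 109, 130, 131, 132 or 137, without intact dog 121 or 126, and with dog age or sample age as covariate. That of ENSCAFG00000010388 was lost in 7 of 27, among them those without neutered dog 130, 131 or 137. The direction held in these fits. None of the 4 remained among the genes tested once the libraries were thinned to equal depth. In CAS the mean level was 7.89 and 7.54 CPM for ENSCAFG00000017008 in neutered and intact dogs, and 9.57 and 10.3 CPM for ENSCAFG00000010388.

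Depth was examined in 2 ways. With all libraries thinned to 617177 counts, 43 of 6418 genes tested (0.67%) were called, all of them higher in neutered dogs, and 41 of these were among the 47. With the log2 total as a covariate, 0 genes were called by edgeR, while 726 had an unadjusted p below 0.05 and the smallest adjusted p was 0.44. In that fit the 47 genes all kept a positive log2 fold change, with a median of 1.92 beside 0.18 over all genes tested, and 19 had an unadjusted p below 0.05. The choice of these genes by the neuter contrast in the same libraries largely fixes that sign. The covariate also runs together with neuter status, so this fit cannot separate the 2. DESeq2 without the covariate called 114 genes, 85 higher and 29 lower, the 47 among the former.

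The same 47 genes were then read in CAS of the same dogs, in libraries that had not chosen them. In CAS, edgeR called 0 of 11869 genes (0%) between neutered and intact dogs. An unadjusted p below 0.05 was reached by 506 genes (4.26%), and DESeq2 called 1 gene, which was not among the 47. All 47 genes had a log2 fold change above 0 in CAS, from 0.02 to 1.26 with a median of 0.65, beside a median of -0.00 over all genes tested. Of the 47, 25 had an unadjusted p below 0.05 and none passed the adjustment (smallest adjusted p = 0.989, edgeR). The genes varied together in normal stroma and the dogs are those that chose them, so the 47 are not independent readings. For ENSCAFG00000028628 the CAS levels were 17.1 ± 8.84 CPM in neutered (SD, n = 5) and 7.51 ± 3.81 CPM in intact dogs (SD, n = 8), which did not pass (log2 fold change 1.26, SE 0.46, edgeR adjusted p = 0.989).

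The neutered dogs differed from each other in CAS as well. The summed share of the 47 genes in CAS was 0.456% in dog 109, 0.752% in dog 130, 0.411% in dog 131, 0.478% in dog 132 and 1.05% in dog 137, beside 0.420% to 0.572% in the 8 intact dogs. Only dogs 137 and 130 of the 5 lay above the intact range, with 42 and 32 of the 47 genes above all 8 intact dogs. In dogs 109, 131 and 132 this held for 2, 2 and 8 genes. Dog 136, whose normal stroma library was left out, had 1.94% in CAS and all 47 genes above the 8 intact dogs. The CAS libraries of dogs 130 and 136 were the shallowest of that stroma, with 1361951 and 1848241 counts, and that of dog 137 had 2634420 counts. The part of depth in these values was not tested.

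**Figure D5:**
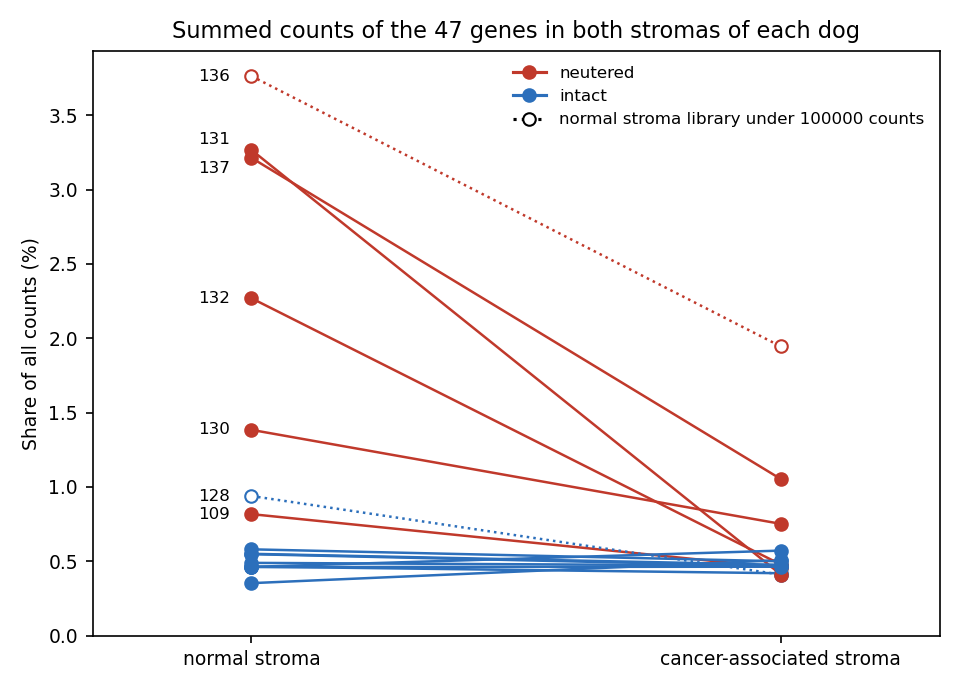
Share of all counts taken by the 47 genes together (vertical axis, %) in normal stroma and CAS of each dog, joined by a line. Neutered dogs 131, 132, 109 and 130 drop from 0.817% to 3.27% in normal stroma to 0.411% to 0.752% in CAS and dog 137 from 3.21% to 1.05%, while the 8 intact dogs stay between 0.353% and 0.581% in both.

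Within a dog, the share in normal stroma over that in CAS was 1.79, 1.84, 7.94, 4.74 and 3.05 in neutered dogs 109, 130, 131, 132 and 137, and 0.696 to 1.17 in the intact dogs. Whether the neuter difference differed between the stromas was tested across all genes, with the dog as a block. Of 12509 genes, edgeR called 0 (0%), 813 had an unadjusted p below 0.05 and the smallest adjusted p was 0.197, whereas DESeq2 with the same block called 13, 6 of them among the 47. The 47 genes all had a difference above 0, from 0.51 to 2.19 with a median of 1.38 on the log2 scale, beside -0.21 over all genes tested. They had been chosen on the normal stroma side of that difference, which fixes its direction in part. A larger neuter difference in normal stroma than in CAS was thus not established for any single gene by edgeR.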

How the data were processed

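The authors quantified reads of LCM-dissected FFPE tissue (stranded total RNA libraries, the same RNA mass for each) with kallisto 0.44.0 against Ensembl transcripts of CanFam3.1 and summarised them per gene with tximport. The deposited values are estimated counts, without normalisation, for 18582 genes. All are whole numbers as deposited. 0 gene IDs matched the RefSeq table used for names, so planned gene lists, cell type markers and sequences were not used here.

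Of 17231 genes with a count in the 13 libraries, filterByExpr kept 10421. These were scaled by TMM and tested in R 4.3.3 with edgeR 4.0.16 (quasi-likelihood, no covariates, Benjamini-Hochberg FDR below 0.05). CPM printed per library use the raw total. The SE of a fold change was derived from the F statistic. PCA used log2 CPM with a prior count of 2. Single values per library were compared with two-sided exact permutation tests. Named genes are the first 2 in each direction by log2 fold change among called genes with non-overlapping libraries, and the most abundant gene. Alternatives used DESeq2 1.42.0, limma 3.58.1 and sva 3.50.0, and procedures were tested on simulated counts. Thinning was added after the totals were seen. The members, gene lists and tests were chosen with earlier results of these data known.

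Both stromas of a dog come from 1 animal, which pairs the libraries in the fit over both stromas. Deviations of log2 CPM from the group means correlated within dogs with a mean of 0.128 (0.0221 to 0.235, over 0.1 in 6 of 13 dogs), against -0.0103 between dogs.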

Additional observations from a re-analysis of the deposited data

Results flagged for a closer look

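In the PCA of the 13 libraries, single dogs stood far from the rest of their group, with a gap to the nearest other library that exceeded Dixon's limit for the group size. Dog 130 scored 132.8 on PC2 and dog 132 scored 114.2 on PC4 among the neutered dogs, and dog 134 scored 3.97 on PC1, 5.15 on PC2 and -122.0 on PC3 among the intact dogs. These are 5 of 27 groups of values examined. For independent values chance would give about 1 in 20. All 5 are component scores from 1 PCA, so that rate does not apply to them and no excess is read from it. What sets these libraries apart was not tested.

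The normal stroma libraries of dogs 128 and 136 entered only the fits and tests with all 15 normal stroma libraries. They held the 47 genes at 0.939% and 3.76% of their counts, beside 0.353% to 0.581% in the 8 intact dogs of the comparison. The share of dog 136 lay above all 5 neutered dogs of the comparison and that of dog 128, an intact dog, above neutered dog 109. Both libraries were also the shallowest of the series, and the part of depth was not tested.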

How the results depend on the processing

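The 47 genes were chosen by the same contrast in mostly the same libraries, which largely fixes their sign in other fits. They were above 0 wherever tested in all 29 alternative fits, with medians of 1.92 to 2.57. Calls were made in 28 of the 29. With the log2 total as covariate 0 genes were called, 0 higher and 0 lower, and the median over all genes moved from -0.06 to 0.18. Where a count below moved, the cause was not tested. The neuter difference cannot be told apart from depth, and the 4 lower calls of the main fit rest on 0 to 3 counts per neutered library. DESeq2 called 114 genes (85 higher, 29 lower), the joint fit of both stromas 96 (28 lower), limma-voom 32 (0 lower) and 4 surrogate variables 32 (28 higher). Lower calls moved to 1 with all genes holding a count or with dog age as covariate. They moved to 2 with at least 10 counts in every library, with sample age as covariate or with all 15 libraries. At an FDR below 0.01 with a fold above 2, or after thinning, they moved to 0. With all genes, either age or all 15 libraries, these calls were among the 4 of the main fit. The 2 with at least 10 counts in every library and the 4 with 4 surrogate variables included 0 of those genes. Of the calls, 74.6% were higher by DESeq2 and 70.8% in the joint fit. Leaving out 1 library at a time gave 37 (without dog 131) to 62 (without dog 109) calls, 35 (without dog 137) to 57 higher and 0 (without dog 130) to 5 lower, of which the 47 made up 35 to 47. Such fits gave -1.74 to -1.46 for the log2 total, -3691 to -2947 for genes detected and 48.1 to 75.7 for PC1. PC1 was computed anew in each of them, and its unadjusted p rose above 0.05 without dog 131. The adjusted p for PC1 did not pass with all 13. With all 15 libraries these were -1.71 (p = 0.178), -3403 (p = 0.0675) and 36.3 (p = 0.480, all two-sided exact permutation tests), and thinning gave -225 for genes detected. The interaction fit with the dog as replicate block called 0 genes, 0 without the block and 13 with DESeq2 and the block.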
